A study of Homo sapiens with 4 samples.

Results

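The genes described here encode amino acid transporters of the cell surface and their closest relatives, measured by RNA sequencing in TPC1 cells. Members were all rows of the deposited gene table whose symbol belongs to the solute carrier subfamilies SLC1, SLC3, SLC6, SLC7, SLC36, SLC38 or SLC43, which gave 59 of 20372 rows. Of these, 58 encode transporters or the heavy chains that carry them, and SLC7A6OS matched by name only, as the neighbour of SLC7A6 on the opposite strand. A member counted as measured with 10 or more reads summed over the 4 libraries, which held for 32 of the 59, and 31 had enough reads to be tested. Some members belong to other membranes: SLC36A4, SLC38A7 and SLC38A9 are known mainly from lysosomes and SLC6A17 from synaptic vesicles.

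TPC1 is an established human papillary thyroid cancer line with a CCDC6-RET fusion, so all libraries come from a single line with a constantly active RET kinase. One group received the RET inhibitor BLU6864 for 6 h and the other the solvent DMSO, with 2 libraries each. Both BLU6864 titles, and neither DMSO title, carry the word re-analysis, so whatever that marks cannot be told apart from the treatment. The labels give BLU6864 at 100 micromolar, while the study's text gives a dose in the nanomolar range, so the dose is uncertain. No time is labelled for the DMSO cells, although their columns are named with 24 h, so that drug and time in culture cannot be told apart. The study's text gives DMEM with serum for TPC1 cells in other assays, and names no medium for the RNA sequencing. Nothing in the labels says that the libraries of a group came from separate cultures, and p-values measure only the spread between them, which may be technical.

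Amino acid transporters move their substrates across membranes either by exchange, in which one amino acid leaves as another enters, or with the help of sodium or proton gradients. Several light chains of the SLC7 subfamily reach the cell surface only when bound to a heavy chain, SLC3A2 or SLC3A1. In cancer cells, uptake of leucine, glutamine and cystine feeds protein synthesis, mTORC1 signalling and the making of glutathione, an antioxidant.

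The counts totalled 23917056 and 26829072 reads in BLU6864 replicates 1 and 2, and 28305571 and 23750509 reads in DMSO replicates 1 and 2. Of the thyroid markers, PAX8 was abundant and TG and FOXE1 were detected, whereas TSHR and NKX2-1 had 0 reads and SLC5A5 9 reads, and the 3 tested markers were all lower with BLU6864. The epithelial keratins KRT8, KRT18, KRT19 and KRT7 were detected, with 25 reads of EPCAM and 11 of CDH1 in all, and the list summed to 2911 to 3032 in BLU6864 libraries and 3723 to 4336 in DMSO libraries. With BLU6864, KRT18 was lower and KRT7 higher, while KRT8 and KRT19 did not pass the test. Of the leukocyte markers, CD3E had 0 reads, and the summed normalized count of the list was 43.1 to 50.4 in BLU6864 libraries and 18.6 to 21.1 in DMSO libraries, mostly from CD14. Fibroblast markers summed to 265 to 278 in BLU6864 libraries and 189 to 193 in DMSO libraries, mostly COL1A1, with COL3A1 and DCN at 0. The endothelial markers VWF and CDH5 summed to 10.3 to 17.9 in BLU6864 libraries and 3.66 to 6.57 in DMSO libraries. The part of these lists in the results below was not tested. In bulk RNA, fewer cells of a kind and less RNA per cell cannot be told apart.

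With BLU6864, all 3 tested transporters of large neutral amino acids were higher, SLC43A2 by the most, and of the 3 tested transporters of glutamate and aspartate SLC1A3 and SLC1A1 were lower and SLC1A2 was higher. The calls of SLC43A1 and SLC1A1 among them were lost in some alternatives, and classes were not tested as such. Across the 30 tested transporters, 10 rose, 6 fell and 14 did not pass the test, which was an edgeR quasi-likelihood test at an adjusted p under 0.05 over 12696 genes. The share that passed was 53.3%, and 42.2% of all genes tested passed, 20.3% higher and 22.0% lower. The median log2 fold change of BLU6864 over DMSO was 0.15 for the transporters and 0.01 for all genes, and the median absolute change was 0.33 for the transporters and 0.28 for all genes. A change of at least 2-fold that passed the test was seen in 5 of 30 transporters, or 16.7%, against 8.75% of all genes. The normalized counts of the groups did not overlap in 25 of 30 transporters, or 83.3%, against 70.8% of all genes. Summed over all 58 genes, normalized counts were 60197 and 57258 in BLU6864 libraries and 59053 and 54660.0 in DMSO libraries, and these ranges overlap.

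**Figure D1:**
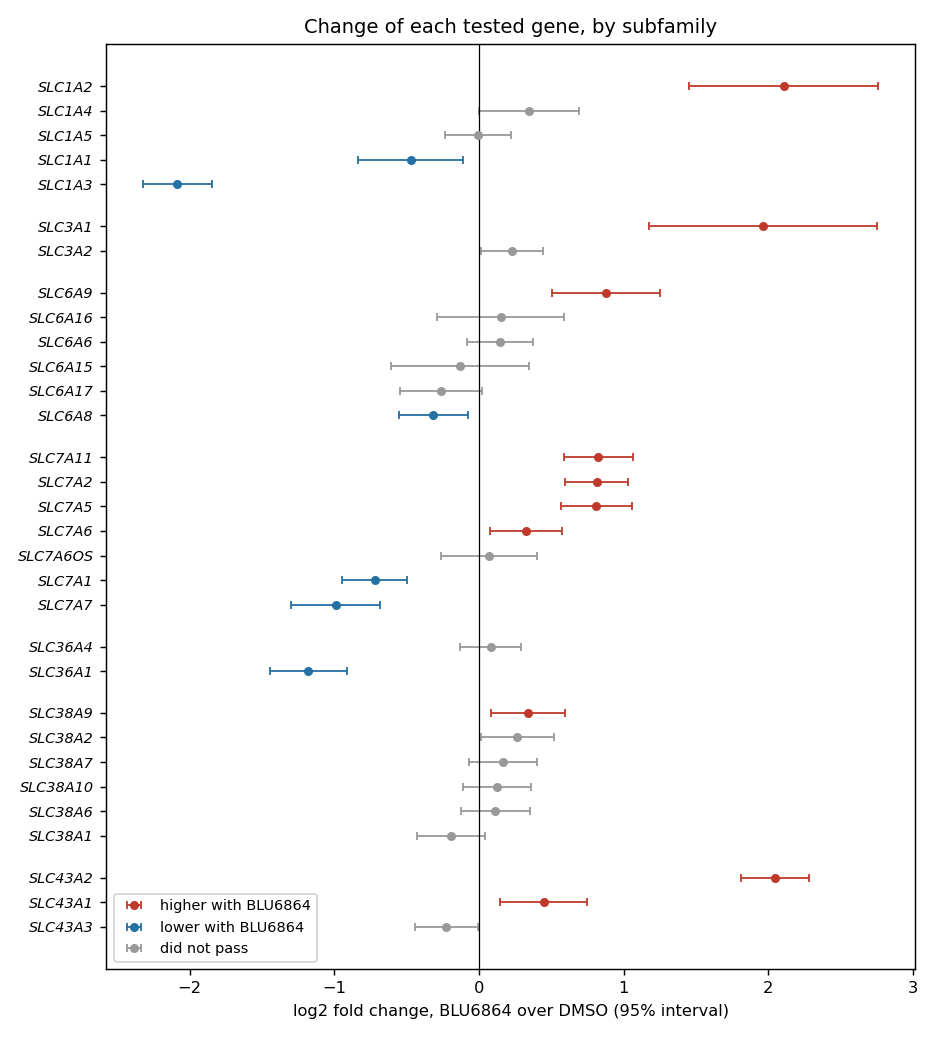
Log2 fold change of BLU6864 over DMSO (x axis) for the 31 tested members grouped by subfamily (y axis), with 95% intervals as bars and 2 libraries per group. Points run from SLC1A3 at -2.08 to SLC1A2 at 2.11, both of the SLC1 subfamily, and all 6 SLC7 transporters lie beyond 0 with their intervals.

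By subfamily, all 6 tested SLC7 transporters passed, 4 higher and 2 lower, with a median log2 fold change of 0.57. In SLC43, 2 of 3 rose and none fell, with a median of 0.45. In SLC1, 1 of 5 rose and 2 fell, and the median was -0.01. These subfamilies held most of the calls. SLC38 had 1 higher among 6 (median 0.14), SLC6 had 1 higher and 1 lower among 6 (median 0.01), SLC3 had 1 higher of 2 (median 1.09), and SLC36 had 1 lower of 2 (median -0.55). No test between subfamilies was made.

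Large neutral amino acids, such as leucine and phenylalanine, enter cells through SLC7A5 in exchange for other amino acids and through SLC43A1 and SLC43A2 by facilitated diffusion. SLC43A2 (also called LAT4, chr17:1472561-1532180 in hg19) had normalized counts of 1600.2 and 1604 in BLU6864 libraries, against 396 and 381 in DMSO libraries. Every BLU6864 library stood far above every DMSO library, a 4.13-fold difference (log2 fold change 2.05 ± 0.11, SE, adjusted p = 6.08e-14). SLC7A5 (LAT1, chr16:87863629-87903094 in hg19), the main leucine exchanger of growing cells, had 7307 and 7377 in BLU6864 libraries, against 4650 and 3737 in DMSO libraries. The groups did not overlap, and SLC7A5 was 1.76-fold higher with BLU6864 (log2 fold change 0.81 ± 0.12, adjusted p = 3.85e-06).

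SLC43A1 (LAT3) changed less, with normalized counts of 278 and 250.1 in BLU6864 libraries, against 211 and 176 in DMSO libraries. The groups did not overlap, and the log2 fold change was 0.45 ± 0.15 (adjusted p = 0.015). SLC43A1 no longer passed when BLU6864 replicate 1 (adjusted p = 0.204), BLU6864 replicate 2 (0.0611) or DMSO replicate 2 (0.0501) was left out, among alternatives that ranged from 0.000739 to 0.204. SLC7A8 (LAT2), the remaining member of the class, was measured but too low to test, with 7 and 7 reads in BLU6864 libraries, against 5 and 7 in DMSO libraries. It was the measured member with the fewest reads, and SLC7A10, a small neutral amino acid exchanger with 8 reads in all, was the nearest below the limit.

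Summed over the class, normalized counts were 9193 and 9237 in BLU6864 libraries, against 5261 and 4301 in DMSO libraries, a ratio of 1.93. The BLU6864 sums were close to each other and above both DMSO sums. Per kb of exon, SLC7A5 made up 86.9% and 87.4% of the class in BLU6864 libraries, against 90.9% and 90.0% in DMSO libraries. Between the SLC43 paralogs, SLC43A2 took 65.6% and 68.1% of their joint count per kb in BLU6864 libraries, against 38.5% and 41.8% in DMSO libraries. This order, with SLC43A2 above SLC43A1 in BLU6864 libraries and below it in DMSO libraries, holds only per kb, with summed exon lengths of 10605 bases for SLC43A2 and 3526 for SLC43A1, whereas the normalized count of SLC43A2 was the higher of the pair in all 4 libraries. Sums and shares were not tested, since an exact permutation test of 2 against 2 libraries cannot go below 0.333.

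SLC3A2 (4F2hc, CD98), the heavy chain that SLC7A5, SLC7A6, SLC7A7, SLC7A8 and SLC7A11 need at the cell surface, did not pass the test. Its normalized counts were 2748 and 2698 in BLU6864 libraries, against 2402 and 2265 in DMSO libraries, without overlap (log2 fold change 0.23 ± 0.10, 95% interval from 0.01, adjusted p = 0.0808). It passed with upper-quartile factors and without DMSO replicate 1, and its adjusted p over the alternatives ranged from 0.0169 to 0.413. Per kb of exon, the ratio of SLC7A5 to SLC3A2 was 3.57 and 3.67 in BLU6864 libraries, against 2.60 and 2.21 in DMSO libraries. The size of this ratio depends on the summed exon lengths, 4764 bases for SLC7A5 and 6392 for SLC3A2. The ratio was higher in both BLU6864 libraries than in either DMSO library.

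**Figure D2:**
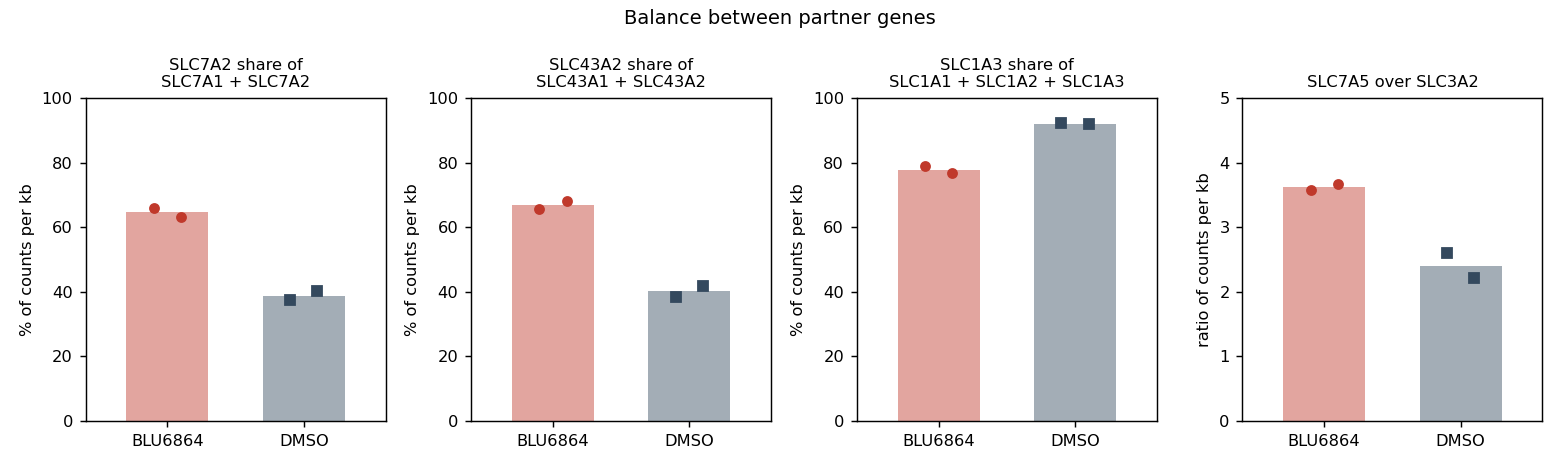
Shares of joint normalized counts per kb of exon (first 3 panels, y axis in percent) and the SLC7A5 to SLC3A2 ratio (right), with bars as the mean of 2 libraries and points as libraries. SLC7A2 made up 66.1% and 63.3% of the SLC7A1 and SLC7A2 count in BLU6864 libraries, against 37.4% and 40.2% in DMSO libraries, and no panel has overlapping groups.

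Glutamate and aspartate are taken up with sodium by SLC1A1, SLC1A2 and SLC1A3, the excitatory amino acid transporters best known from brain. SLC1A3 (EAAT1, chr5:36606457-36688436 in hg19) had normalized counts of 1957 and 1777 in BLU6864 libraries, against 8135 and 7743 in DMSO libraries. Both BLU6864 libraries were far below both DMSO libraries, and SLC1A3 was 4.24-fold lower with BLU6864 (log2 fold change -2.08 ± 0.11, adjusted p = 5.34e-14). SLC1A2 (EAAT2, chr11:35272753-35441610 in hg19) had 53.6 and 54.3 in BLU6864 libraries, against 11.9 and 13.1 in DMSO libraries. It went the other way, 4.31-fold higher with BLU6864 (log2 fold change 2.11 ± 0.32, adjusted p = 5.73e-06), from 51 and 58 reads in BLU6864 libraries and 13 and 12 reads in DMSO libraries.

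SLC1A1 (EAAT3) had normalized counts of 89.3 and 91.8 in BLU6864 libraries, against 127 and 125 in DMSO libraries. The groups did not overlap (log2 fold change -0.47 ± 0.18, adjusted p = 0.0339). This call was lost without either BLU6864 library (adjusted p = 0.229 without replicate 1, 0.197 without replicate 2) and without DMSO replicate 1 (0.0586), and the alternatives ranged from 0.0254 to 0.229. SLC1A1 overlaps SPATA6L, which had 145 reads against its 436, so some reads may belong to the other gene. SPATA6L had a log2 fold change of 0.45 ± 0.28 (adjusted p = 0.196). Summed over the class, normalized counts were 2101 and 1924 in BLU6864 libraries, against 8274 and 7881 in DMSO libraries, a ratio of 0.249. SLC1A3 carried 78.8% and 76.7% of the count per kb of these 3 genes in BLU6864 libraries, against 92.2% and 91.9% in DMSO libraries. Summed exon lengths were 21227 bases for SLC1A3, 22800 for SLC1A2 and 3974 for SLC1A1, so SLC1A1 gains weight per kb. Without division by length, SLC1A3 made up 1957 and 1777 of the BLU6864 sums above, against 8135 and 7743 of the DMSO sums.

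**Figure D3:**
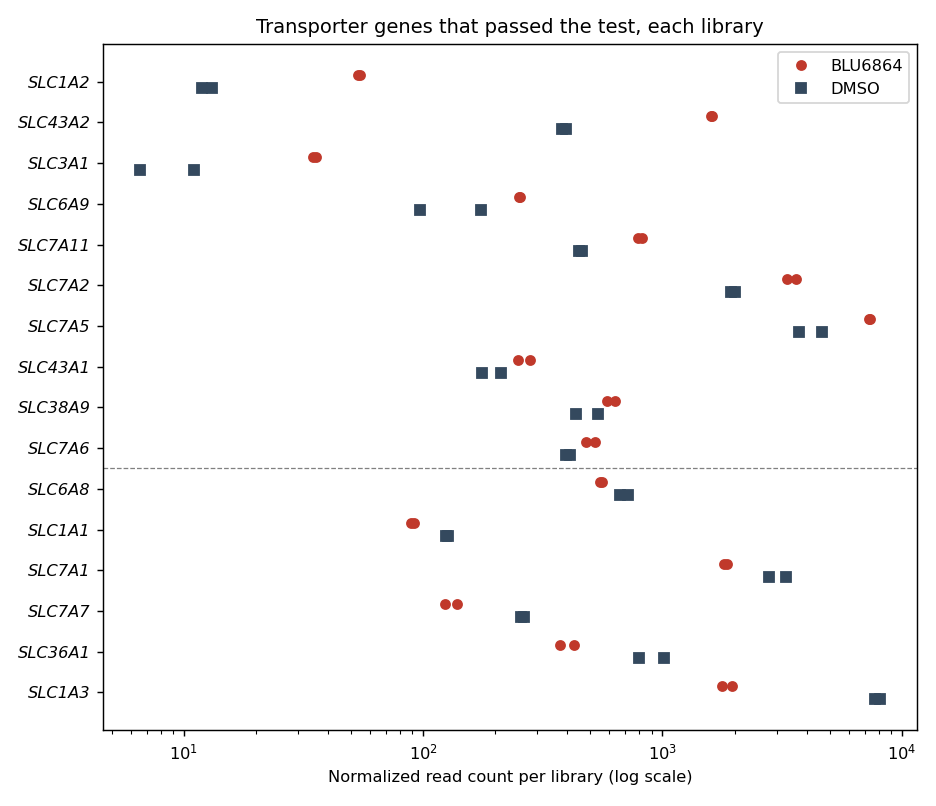
Normalized read counts on a log scale (x axis) of the 16 members that passed the test (y axis), one circle per BLU6864 library and one square per DMSO library. The 10 higher genes lie above the dashed line and the 6 lower genes below it, and in no gene do the circles and squares overlap.

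Arginine and lysine enter through SLC7A1 and SLC7A2, cationic amino acid transporters that work without a heavy chain. SLC7A1 (CAT1, chr13:30083547-30169825 in hg19) had normalized counts of 1808 and 1868 in BLU6864 libraries, against 3281 and 2795 in DMSO libraries. It was 1.65-fold lower with BLU6864 without overlap (log2 fold change -0.72 ± 0.11, adjusted p = 5.87e-06). SLC7A2 (CAT2) had 3619.6 and 3310.05 in BLU6864 libraries, against 2014 and 1935 in DMSO libraries. It was 1.76-fold higher without overlap (log2 fold change 0.82 ± 0.11, adjusted p = 5.83e-07), and the summed count of the class, with a ratio of 1.06, was 5428 and 5178 in BLU6864 libraries and 5295 and 4729 in DMSO libraries. The pair thus moved in opposite directions while its sum overlapped between the groups.

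SLC7A7 and SLC7A6 encode y+LAT1 and y+LAT2, which exchange cationic for neutral amino acids together with SLC3A2. SLC7A7 (chr14:23242431-23299029 in hg19) had normalized counts of 139 and 124 in BLU6864 libraries, against 257 and 265 in DMSO libraries. It was 1.99-fold lower with BLU6864 without overlap (log2 fold change -0.99 ± 0.15, adjusted p = 6.24e-06). SLC7A6 had 481 and 525 in BLU6864 libraries, against 410.1 and 395 in DMSO libraries, without overlap (log2 fold change 0.33 ± 0.12, adjusted p = 0.0336). It no longer passed when BLU6864 replicate 1 (adjusted p = 0.121) or replicate 2 (0.386) was left out, and the alternatives ranged from 0.0117 to 0.386. SLC7A6 shares 17317 bases with SLC7A6OS, which had 577 reads against 1827 and a log2 fold change of 0.07 ± 0.16, and since the strand setting of the counting is not given, reads of these neighbours may be mixed.

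Cystine is imported by SLC7A11 (xCT), which exports glutamate in exchange and supplies the cysteine of glutathione. SLC7A11 (chr4:139085251-139163503 in hg19) had normalized counts of 787 and 821 in BLU6864 libraries, against 462 and 449 in DMSO libraries. It was 1.77-fold higher with BLU6864 without overlap (log2 fold change 0.82 ± 0.12, adjusted p = 1.97e-06). SLC3A1 (rBAT), the heavy chain of the kidney cystine transporter, had only 34.7 and 35.6 in BLU6864 libraries, against 11.0 and 6.57 in DMSO libraries. The change passed (log2 fold change 1.96 ± 0.38, adjusted p = 0.000164), from 33 and 38 reads in BLU6864 libraries and 12 and 6 in DMSO libraries. SLC3A1 overlaps PREPL over 5214 bases, and PREPL had 9731 reads with a log2 fold change of 0.09 ± 0.10, so a small share of its reads could weigh on SLC3A1. SLC7A9, the light chain that SLC3A1 carries, had fewer than 10 reads.

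Small neutral amino acids such as alanine are moved by SLC1A4, SLC1A5, SLC38A1, SLC38A2 and SLC36A1. SLC38A2 (SNAT2), a sodium-coupled importer, had the highest level of all members per kb of exon, with 2768 normalized counts per kb in BLU6864 libraries and 2308 in DMSO libraries on average. Its normalized counts were 18835.5 and 17202 in BLU6864 libraries, against 14849.8 and 15202 in DMSO libraries. The groups did not overlap, yet SLC38A2 did not pass (log2 fold change 0.27 ± 0.12, adjusted p = 0.0865), and it did pass in 4 of 10 alternatives, among them DESeq2, upper-quartile factors and the fit without DMSO replicate 2, over a range of 0.0270 to 0.534. SLC38A1 (SNAT1), its nearest relative, had 4814 and 4575 in BLU6864 libraries, against 5858 and 4926 in DMSO libraries, without overlap (log2 fold change -0.20 ± 0.11, adjusted p = 0.173). It passed without DMSO replicate 2 among alternatives from 0.00405 to 0.636.

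SLC1A5 (ASCT2), a sodium-dependent exchanger of glutamine, ranked behind SLC38A2 and SLC7A5 in level per kb and gave no detectable difference. Its normalized counts were 2213 and 1980.0 in BLU6864 libraries, against 2317 and 1904 in DMSO libraries, which overlap (log2 fold change -0.01 ± 0.11, adjusted p = 0.967, 95% interval -0.24 to 0.22). SLC36A1 (PAT1, chr5:150816607-150871942 in hg19), a proton-coupled transporter of the cell surface and the lysosome, had 374 and 425 in BLU6864 libraries, against 1018 and 798 in DMSO libraries. It was 2.27-fold lower with BLU6864 without overlap (log2 fold change -1.18 ± 0.13, adjusted p = 3.29e-08). SLC36A4, its relative with a preference for proline and tryptophan, had a log2 fold change of 0.08 ± 0.10, and SLC1A4 (ASCT1) one of 0.35 ± 0.17 (adjusted p = 0.0981). SLC1A4 passed without DMSO replicate 1. The summed count of the class had a ratio of 1.08, with 26378 and 24348 in BLU6864 libraries and 24170.3 and 22944 in DMSO libraries, without overlap.

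**Figure D4:**
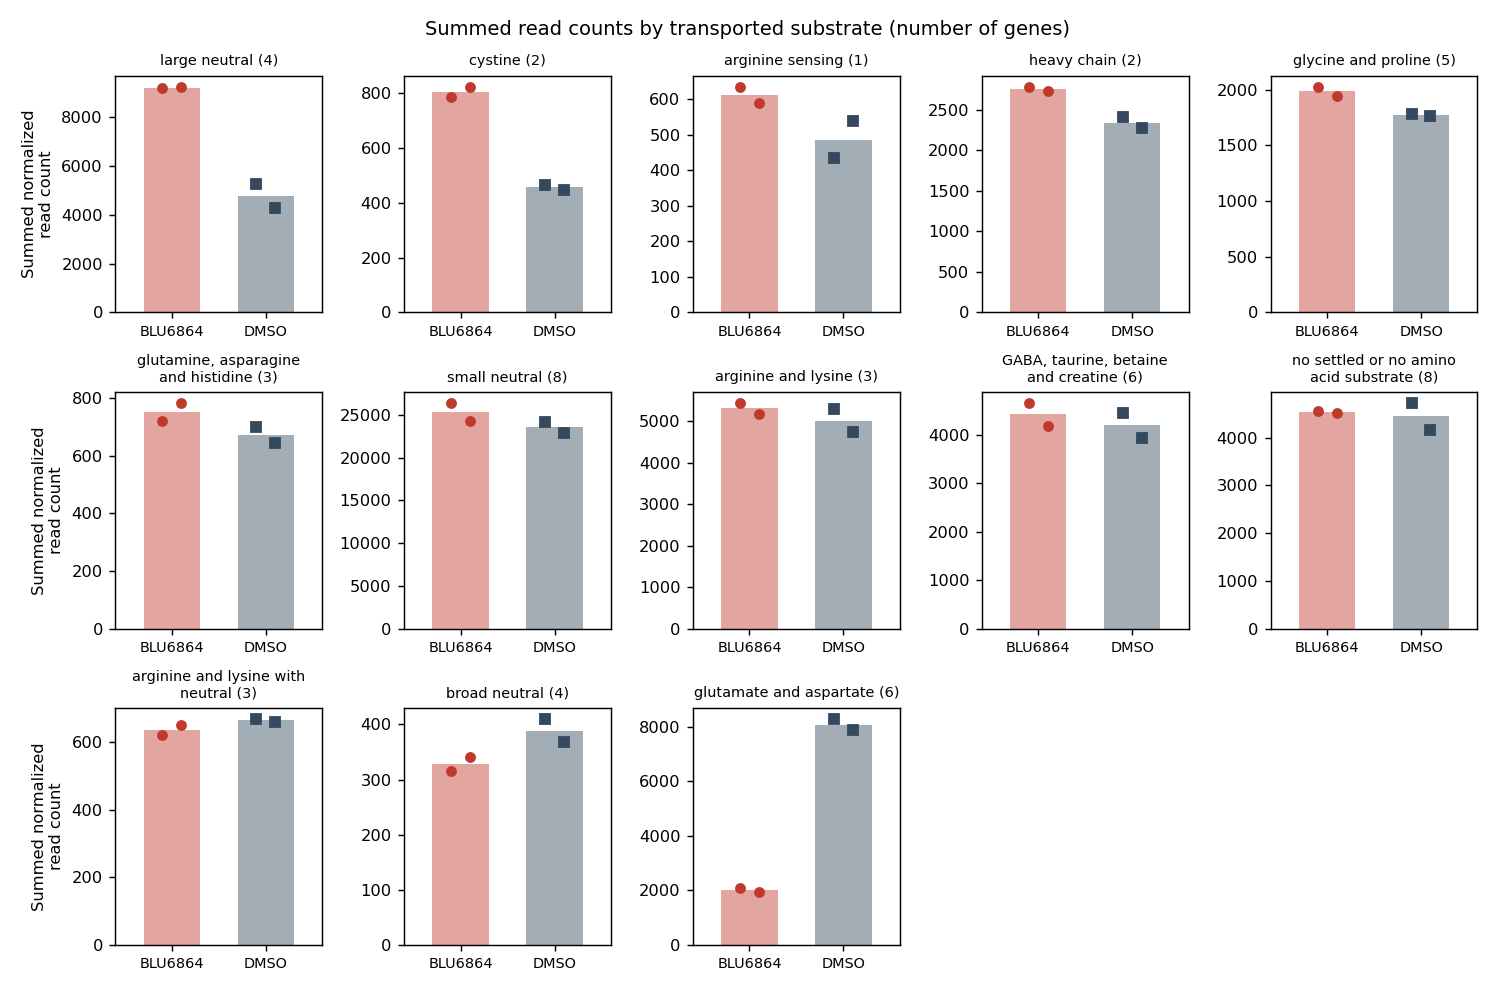
Summed normalized read counts (y axis, from 0) by transported substrate, with bars as the mean of 2 libraries and points as libraries, BLU6864 left and DMSO right, and the number of member genes in brackets. Large neutral stands at 9193 and 9237 with BLU6864 against 5261 and 4301 with DMSO, glutamate and aspartate at 2101 and 1924 against 8274 and 7881, and small neutral at 26378 and 24348 against 24170.3 and 22944.

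Among glycine, taurine and creatine transporters, SLC6A9 (GlyT1), which takes up glycine with sodium and chloride, rose. Its normalized counts were 254 and 251 in BLU6864 libraries, against 175 and 97.4 in DMSO libraries. The groups did not overlap, but the DMSO libraries lay far apart (log2 fold change 0.88 ± 0.18, adjusted p = 0.000344). The log2 fold change was 1.37 without DMSO replicate 1 and 0.53 without DMSO replicate 2. SLC6A9 overlaps CCDC24, which had 681 reads against 790 and a log2 fold change of 0.24 ± 0.17. SLC6A8, the creatine transporter, had 549.5 and 558 in BLU6864 libraries, against 719 and 664 in DMSO libraries (log2 fold change -0.32 ± 0.12, adjusted p = 0.0293). The SLC6A8 call was lost without either BLU6864 library (adjusted p = 0.251 without replicate 1, 0.234 without replicate 2), and the alternatives ranged from 0.00268 to 0.251.

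SLC6A6, the taurine transporter, overlapped between the groups, with 4105 and 3633 in BLU6864 libraries and 3742 and 3275 in DMSO libraries (log2 fold change 0.14 ± 0.11). It passed without DMSO replicate 1. SLC6A15 and SLC6A17, carriers of branched-chain and other neutral amino acids, and SLC6A16, without a settled substrate, had log2 fold changes of -0.13 ± 0.23, -0.26 ± 0.14 and 0.15 ± 0.21, and SLC6A17 passed without DMSO replicate 2.

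Of the lysosomal SLC38 members, SLC38A9, which signals lysosomal arginine to mTORC1, had normalized counts of 634 and 588 in BLU6864 libraries, against 434 and 537 in DMSO libraries. The groups did not overlap (log2 fold change 0.34 ± 0.12, adjusted p = 0.0309). Without DMSO replicate 1 the log2 fold change was 0.18 and the call was lost (adjusted p = 0.191), as it was without BLU6864 replicate 1 (0.273) or replicate 2 (0.136), among alternatives from 0.000350 to 0.273. SLC38A7, a lysosomal glutamine and asparagine exporter, did not pass, with a log2 fold change of 0.16 ± 0.11. SLC38A10 and SLC38A6, without settled roles, had 0.12 ± 0.11 and 0.11 ± 0.12, and SLC38A10 passed without DMSO replicate 1. SLC43A3, known as a purine nucleobase transporter, had 1042 and 1059 normalized counts in BLU6864 libraries, against 1249 and 1213.5 in DMSO libraries (log2 fold change -0.22 ± 0.11, adjusted p = 0.0901), and passed without DMSO replicate 2.

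In order of level, the 10 members with the highest normalized count per kb of exon over the 4 libraries were SLC38A2, SLC7A5, SLC1A5, SLC38A1, SLC6A6, SLC3A2, SLC7A2, SLC38A10, SLC7A1 and SLC43A3. Of these, 3 passed the test, SLC7A5 and SLC7A2 higher and SLC7A1 lower. The order depends on exon length, and SLC1A3, with 21227 bases, came next at rank 11. Its mean normalized count without division by length, 4903, was below only those of SLC38A2, SLC7A5 and SLC38A1. SLC1A3 averaged 88.0 counts per kb in BLU6864 libraries and 374 in DMSO libraries, and SLC43A2 averaged 151 counts per kb in BLU6864 libraries and 36.6 in DMSO libraries. At the other end, 14 members had 1 to 9 reads in all, among them SLC7A10, SLC6A12, SLC6A7, SLC6A4, SLC6A14, SLC7A9, SLC38A4, SLC36A3, SLC6A20, SLC6A13, SLC7A13, SLC38A11 and SLC7A4. The 13 with 0 reads were SLC7A14, SLC38A5, SLC6A2, SLC1A6, SLC6A11, SLC6A3, SLC1A7, SLC6A18, SLC7A3, SLC6A5, SLC38A8, SLC6A19 and SLC36A2. A count of 0 allows up to 3 reads in a library, for counting error only.

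Upstream sequence was read for the members with a RefSeq promoter window (GRCh38.p14, 250 bases before to 50 after the gene's start), which were 44 of 58 and 12 of the 16 that passed. The motifs searched, on both strands, were CARE, bound by ATF4 and its partners (letters TGATGNAA), the E-box bound by MYC and TFE factors (CACGTG, the same on both strands) and the AP-1 motif (TGANTCA). No motif contains another. The windows of all genes held them in 2.54%, 8.94% and 5.76% of 14157 cases, and those of the 12 genes that passed held them in 2, 2 and 1 cases. The stretches shown are those of the large neutral and glutamate transporters that passed and held a match upstream of the start, with the motif in capitals.
SLC7A5 E-box (chr16:87869615-87869654, minus strand): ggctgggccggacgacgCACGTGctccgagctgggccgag
SLC43A1 E-box (chr11:57515792-57515831, minus strand): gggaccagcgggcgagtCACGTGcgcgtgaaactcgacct
SLC43A2 AP-1 (chr17:1605045-1605085, minus strand): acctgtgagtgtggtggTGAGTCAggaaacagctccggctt
SLC1A3 CARE (chr5:36596351-36596392, plus strand): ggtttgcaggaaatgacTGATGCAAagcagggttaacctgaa

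SLC7A5 and SLC43A1, both higher, held an E-box 130 and 112 bases before the start, SLC43A2 an AP-1 motif 34 bases before it, and SLC1A3, which was lower, a CARE 220 bases before it. SLC7A1, also lower, held a CARE just past the start. A CARE was also in the windows of SLC38A1 and SLC3A2, an AP-1 motif in those of SLC38A1, SLC3A2 and SLC6A17, and an E-box in those of SLC38A7 and SLC6A16, none of which passed. A match describes letters in a window and does not show that a factor binds there. A single window per gene was read, and its position was not compared with the gene ends of the deposited table, which are in another build. RefSeq starts may also differ from those used in TPC1 cells, which was not tested.

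Other genes of amino acid handling were counted in the same test, in which 20.3% of all genes rose and 22.0% fell, with a median log2 fold change of 0.01. Of 11 tested amino acid transporters of other families, 2 rose and 4 fell, with a median log2 fold change of -0.06. SLC16A10, which carries aromatic amino acids, had normalized counts of 127 and 126 in BLU6864 libraries, against 47.6 and 44.9 in DMSO libraries (log2 fold change 1.45 ± 0.20, adjusted p = 1.60e-06). The mitochondrial aspartate and glutamate carriers moved apart, SLC25A12 higher (0.43 ± 0.11) and SLC25A13 lower (-0.91 ± 0.12).

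In amino acid sensing by mTORC1, 10 of 32 tested genes rose (31.3%) and 3 fell (9.38%), with a median log2 fold change of 0.21. Among them SESN1, whose relative SESN2 senses leucine, had normalized counts of 936 and 932 in BLU6864 libraries, against 466 and 508 in DMSO libraries (log2 fold change 0.95 ± 0.11, adjusted p = 1.90e-07). RRAGC, a RAG GTPase, was higher by 0.39 ± 0.10 on the log2 scale, and RPTOR, a subunit of mTORC1, was lower (-0.34 ± 0.12). In the response through GCN2 and ATF4, which follows shortage of amino acids, 9 of 27 rose and 9 fell (33.3% each), with a median of -0.23. This list shares SESN2 and DDIT4 with the sensing list. NUPR1, a stress gene, was higher (2.21 ± 0.11) and TRIB3, an ATF4 target, lower (-1.04 ± 0.11), while ATF4 itself did not pass (-0.26 ± 0.12, adjusted p = 0.0725).

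In the synthesis and breakdown of the transported amino acids, 4 of 22 tested genes rose and 7 fell, with a median log2 fold change of 0.10. SHMT1, which interconverts serine and glycine, was higher (1.14 ± 0.12, adjusted p = 8.95e-09), as was GLUL, which makes glutamine from glutamate (0.49 ± 0.11).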

How the data were processed

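RNA was measured in 4 TPC1 libraries, grouped by the labels. Per the labels, libraries were TruSeq, read as 50 bp single ends. The submitters' processing notes name STAR 2.3, hg19 and DESeq2 without a version, while the study's methods, written for more experiments, give paired ends and a later STAR. For the counting tool, annotation release and strand setting, the entry is: not given in the sources used here. The authors deposited raw counts per gene, and normalized counts, a signal the authors made by dividing each count by a size factor per library. The deposited table also holds the authors' own comparison (log2 fold changes, their errors, a Wald score and p-values), which were not used. Of 20372 rows, 4143 had no read, and all rows entered the totals.

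The test was the two-sided quasi-likelihood F test of edgeR 4.0.16 (R 4.3.3) on the deposited counts, after filterByExpr and TMM and with group alone as factor, with Benjamini-Hochberg adjustment over 12696 genes, and a gene passed at an adjusted p under 0.05. Standard errors came from the F statistic. Levels are the deposited normalized counts, and levels per kb divide them by the summed exon length of GENCODE v44 (GRCh38), matched by Ensembl identifier. Alternatives were RLE and upper-quartile factors, no filter, a filter at 10 reads, DESeq2 1.42.0, the replicate number as a block, each library left out, and a log2 fold change beyond 0.5 with an unadjusted p under 0.01. The test was also run on simulated data that gave all genes the same dispersion, and the outcome is not reported here.

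Named genes were every member that passed, the 10 highest per kb, and partners or nearest paralogs. Other members were named after their values were seen. The members and lists were chosen with earlier results of these data known. SLC38A3 was not analysed here, and some genes are not reported here. Coordinates of genes are those of the deposited table (hg19) and those of promoter stretches are GRCh38.p14, and the builds were not mixed. Sequences are from RefSeq.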

Additional observations from a re-analysis of the deposited data

How the results depend on the processing

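Of the 16 members that passed, 11 passed in all 10 alternatives run for each gene, and the other 5 (SLC38A9, SLC7A6, SLC43A1, SLC6A8 and SLC1A1) kept their direction but lost the call in DESeq2 and in some fits with a library left out, and SLC6A8 and SLC1A1 also with upper-quartile factors. Of the members that did not pass, 8 passed in 1 or more alternatives. SLC1A5, near 0, changed sign with upper-quartile factors (log2 fold change 0.048), with a filter at 10 reads (0.00023), without BLU6864 replicate 2 (0.07) and without DMSO replicate 1 (0.14), and it ranged from -0.14 to 0.14 with a library left out. Without DMSO replicate 2, SLC38A10 was at -0.033 and SLC6A15 at 0.076, against 0.29 and -0.35 without DMSO replicate 1. The number of members that passed was 12 in DESeq2, where 1912 of 12814 genes were higher and 2366 lower. It was 11 at a log2 fold change beyond 0.5 with an unadjusted p under 0.01, limits that 23.5% of all genes met. With a library left out, the numbers that passed changed both among members and among all genes. With a BLU6864 or DMSO library left out, the lone library is assumed to vary like the other group. With the replicate number as a block, 17 members passed, the 16 and SLC38A2 (adjusted p = 0.0270). Among all 12696 genes, 2924 were higher and 3039 lower in that fit, against 2574 and 2790 in the main fit. The deviations of same-numbered libraries correlated at 0.14 over 12696 genes, with only 2 pairs and no shared batch in the labels, so the numbers were not taken as pairs. Upper-quartile factors gave 12 higher and 4 lower members and moved the median of all genes to 0.07. With these factors, 3053 of all genes were higher and 2415 lower. The cause of these changes was not tested. Depth limits SLC1A2 and SLC3A1, which rest on few reads, and the members under 10 reads.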
